A study of Macaca mulatta with 14 samples.

Results

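The collagen genes of the rhesus monkey were followed through the conversion of fibroblasts to neuroepithelial stem cells (NESCs). The members are the genes whose symbol has the form COL, a type number, A and a chain number. They numbered 39 of the 33688 gene loci whose values could be assigned to a label. These comprise 10 fibrillar collagens, 6 chains of the basement membrane collagen type IV and 23 collagens of other types. COL5A1, COL7A1, COL9A3, COL17A1 and COL22A1 have no locus under these symbols among the 33688 and were not analysed here.

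RNA-Seq profiles were made from 7 cell lines, with 2 libraries each. The NESC lines are CHIR-P6 and CHIR-P23, which are epithelial colonies at passages 6 and 23 grown on laminin in the medium iNESC-M (with CHIR99021 in the labels but not in the methods, SB431542, vitamin C, bFGF and human LIF), and C8-P7 and A9-P7, which are colonies grown from single cells of CHIR-P23, so that each is 1 clone. The earlier lines are the ear skin fibroblasts RF-P3 at passage 3, taken from 2 male fetuses on embryonic day 65 and grown in DMEM with serum before infection, and the cells sampled at day 5, called RF-iN-d5, and at day 11, called RF-iN-d11. RF-iN-d5, RF-iN-d11 and all 4 NESC lines descend from fibroblasts infected with retroviruses carrying rhesus OCT4, SOX2 and KLF4 and replated on laminin in the induction medium iNSC-M (CHIR99021, SB431542, vitamin C and bFGF). Y27632 was added until day 5 and valproic acid until day 7. The medium changed together with the stage, so that the stage and the medium cannot be told apart. Values given for a day are those of the RF-iN line of that day, and values given for passage 6 or passage 23 are those of the CHIR line of that passage.

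Collagens are secreted proteins in which 3 chains wind into a triple helix, either 3 copies of a single gene's product or a mixture of related chains. Fibrillar collagens (types I, II, III, V, XI, XXIV and XXVII) polymerize into fibers and are the main product of connective tissue fibroblasts. Type IV collagen instead forms a sheet-like network under epithelia, including the neural epithelium, whose basement membrane faces the surrounding mesenchyme. The remaining types include the beaded filaments of type VI, the FACITs that decorate fibrils, the multiplexins of basement membrane zones and collagens that stay anchored in the cell membrane.

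The values are FPKM, fragments scaled by transcript length and library size, a unit in which the levels of different genes can be set beside each other and summed. Libraries of the same cell line differed less than sampling noise allows: the squared difference of recovered counts over their sum was between 0.117 and 0.141, against 1 for independent libraries. Each pair was therefore averaged and counted as 1 sample, and each cell line contributes 1 value. Summed FPKM per library were between 571041 and 697718. Depth relative to RF-P3 was estimated from the steps between low FPKM values and not from read totals. This estimate reached 4.72 in CHIR-P23 and 5.28 in A9-P7 but at most 1.54 in the other lines. The labels of the lines were set against markers of both states: 9 fibroblast markers summed to 485 to 693 FPKM in the NESC lines and to 3519 to 4392 FPKM in the earlier lines. VIM, which neural progenitors also express, made up 450 to 679 FPKM of the sums in the NESC lines, and without it, a choice made after the values were seen, the other 8 markers summed to 13.3 to 63.1 FPKM in the NESC lines (highest in CHIR-P6) and to 2097 to 2449 FPKM in the earlier lines. The 9 neuroepithelial markers summed to 359 to 760 FPKM in the NESC lines and 114 to 200 FPKM in the earlier lines, of which NES and CDH2 made up the most. CDH2 did not separate the states, at 140 FPKM in RF-P3 and 76.2 to 174 FPKM in the NESC lines. LHX2 was at most 0.920 FPKM in any line. In the test below, 7 of the 8 markers tested, all but CDH2, were called higher in the NESC lines, against 7.57% of all genes. CHIR-P6 stood apart in the transcription factors of this list: SOX3 was at 0.04997 FPKM, SOX1 at 0.275 FPKM and PAX6 at 2.25 FPKM in CHIR-P6, against at least 36.7, 3.40 and 16.7 FPKM in the other NESC lines. In such bulk samples, fewer cells of a type and less RNA per cell cannot be told apart.

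The collagen family as a whole was at a far lower level in the NESC lines. The summed FPKM of the 39 genes was 7014 in RF-P3, 3354 on day 5, 5393 on day 11, 319 at passage 6, 215 at passage 23, 164 in C8-P7 and 204 in A9-P7. Over the 4 NESC lines the mean was 225 ± 66.2 FPKM (SD) and that over the 3 earlier lines 5254 ± 1834 FPKM (SD). Both ranges were far apart, and collagens made up at most 0.0527% of all FPKM in a NESC line but at least 0.547% in an earlier line. The number of collagens at 1 FPKM or more was 18 in RF-P3, 24 in RF-iN-d5 and in RF-iN-d11, 22 in CHIR-P6, 15 at passage 23, 13 in C8-P7 and 12 in A9-P7.

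What remained also differed in makeup. The fibrillar collagens held 82.1% of the collagen FPKM in RF-P3, 67.0% on day 5, 69.3% on day 11, 34.7% at passage 6, 31.0% at passage 23, 6.88% in C8-P7 and 12.4% in A9-P7. Type IV chains held 3.64%, 5.56%, 4.57%, 42.6%, 44.5%, 69.3% and 61.4% in the same order of lines. The type IV share therefore averaged 54.4% ± 13.0 in the NESC lines (SD, n = 4) and 4.59% ± 0.960 in the earlier lines (SD, n = 3), and the fibrillar share 21.2% ± 13.7 in the NESC lines and 72.8% ± 8.16 in the earlier lines. The other types held 24.3% ± 1.49 in the NESC lines and 22.6% ± 7.29 in the earlier lines, and these ranges overlapped. In absolute level type IV was not higher: it summed to 118 ± 17.2 FPKM in the NESC lines and 229 ± 37.5 FPKM in the earlier lines.

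**Figure D1:**
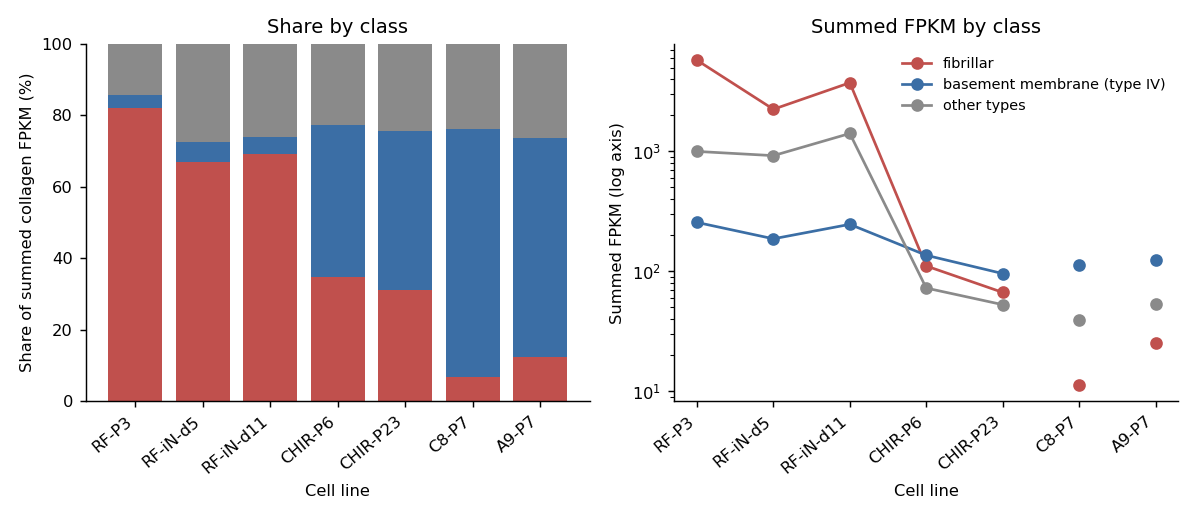
Share of the summed collagen FPKM held by each class (left, stacked bars) and the summed FPKM of each class (right, log axis), each from the average of 2 libraries per cell line; points of C8-P7 and A9-P7 are not joined because both come from CHIR-P23. Type IV held 42.6% to 69.3% in the NESC lines and 3.64% to 5.56% in the earlier lines, while its summed FPKM stayed within 95.7 to 256 over the 7 lines.

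The leading collagen was a different gene at different stages. COL1A1 led in RF-P3 (32.9% of the collagen FPKM), COL1A2 in RF-iN-d5 (29.4%) and COL3A1 in RF-iN-d11 (31.0%). COL2A1 led in CHIR-P6 (25.1%), and COL4A2 led in CHIR-P23 (29.3%), C8-P7 (47.6%) and A9-P7 (42.9%). COL1A1, COL1A2 and COL3A1 together held at most 5.66% in a NESC line and at least 61.5% in an earlier line.

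The NESC lines were then tested against the earlier lines. limma was fitted to log2(FPKM + 1) of the 15024 genes that reached 1 FPKM in 2 or more libraries, with p-values adjusted by the Benjamini-Hochberg method over all of them. A gene was called where the adjusted p was under 0.05 and the log2 fold change was 1 or more in size. This scale understates the change of low genes. The lines descend from each other, so that the p-values measure the spread between these lines and not between independent conversions. Of the 39 collagens, 28 passed the filter (9 fibrillar, 4 of type IV and 15 other). COL5A3, COL19A1, COL21A1 and COL24A1 reached an average of 1 FPKM only in earlier lines and COL2A1, COL9A1 and COL13A1 only in NESC lines, so that the filter itself favours a difference in these 7. Among the 28, 15 were lower in the NESC lines (53.6%, against 13.2% of all genes tested), 2 were higher (7.14%, against 7.57% of all genes) and 11 were not called. The share of higher calls was near that of all genes. Of all genes, 1137 were higher and 1987 lower with FPKM as deposited, and 1576 and 1726 after quantile normalization, which moved the median log2 fold change of all genes to 0.158. The median log2 fold change was -2.04 over the 28 collagens and -0.02 over all genes tested.

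**Figure D2:**
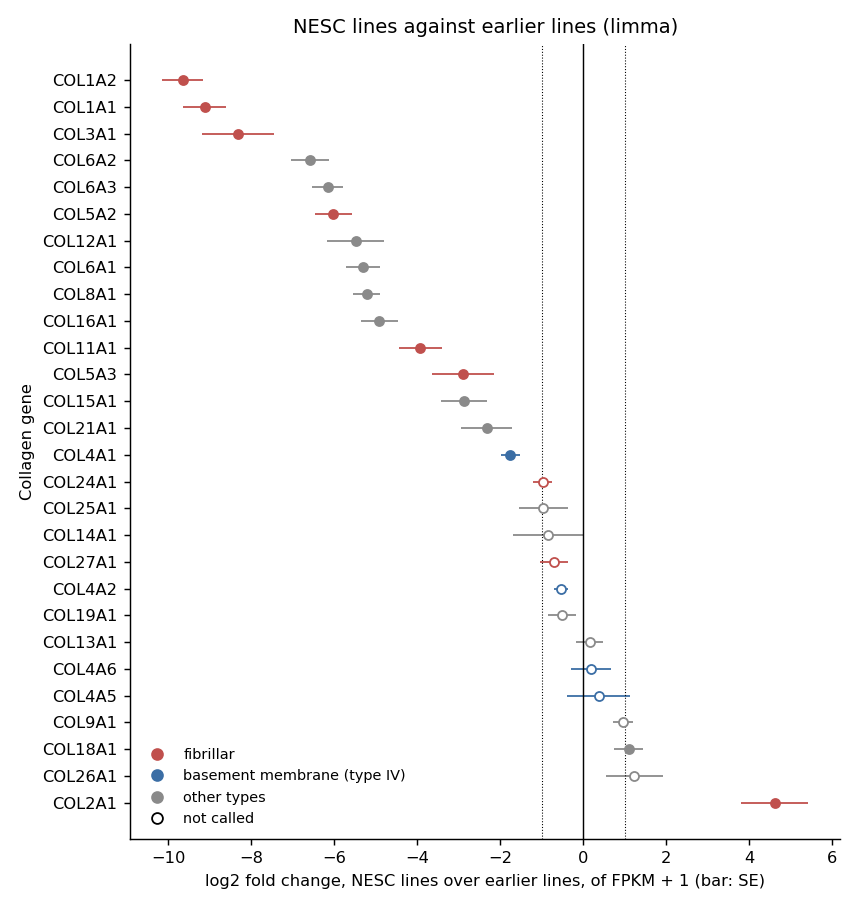
Log2 fold change of FPKM + 1 in the NESC lines over the earlier lines for the 28 collagens that passed the filter, with bars for the SE from limma; open points were not called and dotted lines mark a log2 of -1 and 1. COL1A2 lies at -9.65 at the low end and COL2A1 at 4.61 at the high end, while the 4 type IV chains lie between -1.76 and 0.37.

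The counts by class stand beside 13.2% of all genes called lower and 7.57% called higher. Of 9 fibrillar collagens tested, 6 fell, COL2A1 rose and COL24A1 and COL27A1 were not called (median log2 -3.92). Of 4 type IV chains tested, COL4A1 fell and the other 3 were not called (median -0.18). With 4 chains, this count is too small to be told apart from the shares of all genes. Of 15 other collagens tested, 8 fell, COL18A1 rose and 6 were not called (median -2.33). A difference between the classes was not tested.

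Type I collagen, the major fiber of skin and bone, is built from COL1A1 and COL1A2. COL1A1 was at 2307 FPKM in RF-P3, 573 on day 5, 739 on day 11, 2.26 at passage 6, 0.504 at passage 23, 0.791 in C8-P7 and 0.135 in A9-P7. COL1A2 was at 2276, 987, 1148, 3.01, 0.0838, 0.741 and 0.118 FPKM in that order of lines. Neither gene overlapped between the NESC and earlier lines, and both were higher in CHIR-P6 than in the other NESC lines. COL1A2 had the largest decrease of the family (log2 -9.65, SE 0.50, limma adjusted p = 6.8e-05), followed by COL1A1 (log2 -9.13, SE 0.53, limma adjusted p = 7.9e-05).

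COL3A1 encodes type III collagen, a homotrimer of skin and vessel walls. It was at 766 FPKM in RF-P3, 500.4 on day 5, 1672 on day 11, 12.8 at passage 6, 1.66 at passage 23, 0.356 in C8-P7 and 0.0796 in A9-P7 (log2 -8.32, SE 0.87, limma adjusted p = 6.0e-04). Unlike type I collagen, it was highest on day 11. Among the NESC lines it was highest in CHIR-P6 and lower in both colonies than in CHIR-P23. COL5A2, a chain of type V collagen, which is built into type I fibrils and limits their width, was at 289, 122 and 114 FPKM in the fibroblasts, on day 5 and on day 11 and at 3.87, 0.901, 0.737 and 1.28 FPKM at passage 6, at passage 23, in C8-P7 and in A9-P7 (log2 -6.02, SE 0.45, limma adjusted p = 1.5e-04).

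COL5A3, a further type V chain, had another course from that of COL5A2. It was at 0.958 FPKM in RF-P3, 9.03 on day 5 and 25.2 on day 11, at 0.207 at passage 6, 0.0810 at passage 23 and 0.00998 in C8-P7, and was listed at 0 in A9-P7. The fibroblasts thus had little of it and day 11 the most. It was called lower (log2 -2.90, SE 0.75, limma adjusted p = 0.020), but the call was lost without RF-iN-d5 (log2 -2.74, adjusted p = 0.071), CHIR-P23 (-2.91, adjusted p = 0.050), C8-P7 (-2.88, adjusted p = 0.055) or A9-P7 (-2.87, adjusted p = 0.055) and with no filter (adjusted p = 0.10).

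COL2A1 is the fibrillar collagen that went the other way. It encodes type II collagen, the main fiber of cartilage, which is also made by several embryonic epithelia, the neuroepithelium of vertebrate embryos among them. It was at 0.0305 FPKM in RF-P3, 0.151 on day 5, 0.168 on day 11, 79.9 at passage 6, 53.9 at passage 23, 5.00 in C8-P7 and 19.6 in A9-P7. All 4 NESC lines were above all earlier lines, but among themselves they spanned a wide range, with the colony C8-P7 lowest. The increase was called (log2 4.61, SE 0.81, limma adjusted p = 0.0046) and was called in all alternatives run (log2 2.70 to 6.96). COL2A1 made up 44.3% to 80.9% of the fibrillar FPKM in the NESC lines and at most 0.00674% in the earlier lines, so that most of the fibrillar share of 3 of the NESC lines, and the largest single part in C8-P7, was type II.

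Other cartilage genes were low where COL2A1 was high. The 8 cartilage markers summed to 2.38 to 3.68 FPKM in the NESC lines and to 4.34 to 12.4 FPKM in the earlier lines. Of the 8, 7 were under 1 FPKM in every NESC line, and 5 were under 1 FPKM in every earlier line. HAPLN1 was at 9.97 FPKM of the 12.4 FPKM on day 5. ACAN, which encodes the major proteoglycan of cartilage, was at most 0.0152 FPKM in a NESC line. SOX9, a transcription factor of cartilage and of neural progenitors, was the exception, at 2.82 in CHIR-P6, 1.40 at passage 23, 3.28 in C8-P7 and 1.67 FPKM in A9-P7 (log2 0.84, SE 0.28, limma adjusted p = 0.046, below the limit on fold change). COL11A1, whose chain joins type II collagen in cartilage fibrils and occurs in type I fibrils elsewhere, was at 114 FPKM in RF-P3, 48.4 on day 5, 30.3 on day 11, 2.47 at passage 6, 6.65 at passage 23, 1.81 in C8-P7 and 1.51 in A9-P7. It fell where COL2A1 rose (log2 -3.92, SE 0.52, limma adjusted p = 0.0015). COL9A1, a FACIT that coats type II fibrils, was at 0.596 to 1.65 FPKM in the NESC lines (highest in A9-P7) and at most 0.152 in the earlier lines, with no overlap. Its log2 fold change of 0.96 (SE 0.23, limma adjusted p = 0.016) was just under the limit for a call, and it was called with a pseudocount of 0.1 (log2 2.94), after quantile normalization (1.10) and without RF-iN-d11 (1.02), CHIR-P6 (1.01) or CHIR-P23 (1.08).

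**Figure D3:**
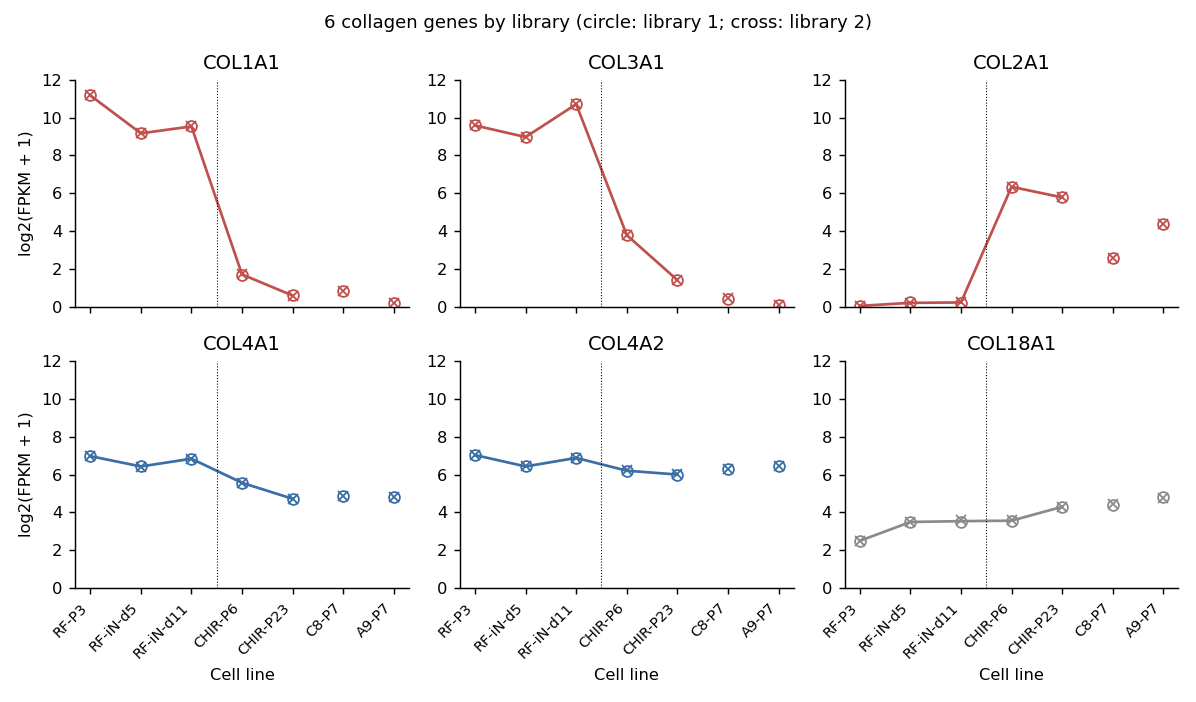
Levels of COL1A1, COL3A1, COL2A1, COL4A1, COL4A2 and COL18A1 as log2(FPKM + 1) in each library (circles and crosses) with a line through the averages up to CHIR-P23; the dotted line separates the earlier lines (left) from the NESC lines (right). COL2A1 is at 0.168 FPKM or lower left of it and at 5.00 FPKM or higher right of it, COL1A1 and COL3A1 show the opposite order, and COL4A2 stays between 63.1 and 130 FPKM in all lines.

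The last fibrillar members were low. COL27A1, a short fibrillar collagen of developing skeleton, was at 6.57, 3.83, 6.16, 6.01, 2.68, 1.69 and 2.38 FPKM from RF-P3 to A9-P7, and its groups overlapped (log2 -0.71, SE 0.35, limma adjusted p = 0.14). COL24A1, a related short fibrillar collagen, was at 0.586, 1.70 and 1.29 FPKM in the fibroblasts, on day 5 and on day 11 and at 0.101, 0.102, 0.0783 and 0.0504 FPKM at passage 6, at passage 23, in C8-P7 and in A9-P7. Its groups did not overlap, but its log2 fold change of -0.98 (SE 0.23, limma adjusted p = 0.014) was just short of the limit, and it was called with a pseudocount of 0.1 (log2 -2.72), without RF-P3 (log2 -1.20) and without the first library of each line.

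Type IV collagen was the class with the smallest median change. COL4A1 and COL4A2 encode the chains of its most widespread form and held 87.6% to 93.6% of the type IV FPKM in the NESC lines and 91.3% to 99.6% in the earlier lines. COL4A2 was at 130 FPKM in RF-P3, 85.2 on day 5, 117 on day 11, 72.8 at passage 6, 63.1 at passage 23, 78.0 in C8-P7 and 87.5 in A9-P7. A9-P7 lay above RF-iN-d5, so that the groups overlapped (log2 -0.54, SE 0.18, limma adjusted p = 0.046, below the limit on fold change). COL4A1 was at 125, 85.2, 113, 46.3, 25.4, 28.4 and 26.8 FPKM in that order of lines. It did not overlap and fell (log2 -1.76, SE 0.23, limma adjusted p = 0.0016).

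Both chains of a type IV helix therefore parted. The ratio of COL4A1 to COL4A2 was 0.962 in RF-P3, 0.999 on day 5, 0.970 on day 11, 0.637 at passage 6, 0.402 at passage 23, 0.364 in C8-P7 and 0.307 in A9-P7. Since it is taken within the average of a line, this ratio does not change when both libraries of a line are rescaled alike. The helix of this form holds 2 COL4A1 chains and 1 COL4A2 chain. In the RefSeq table of the later assembly T2T-MMU8v2.0 the genes are neighbours on chromosome 17. Pearson's r of their log2(FPKM + 1) over the 7 lines was 0.82, against 1.00 for COL1A1 and COL1A2 and 0.99 for COL6A1 and COL6A2, as a description of lines that descend from each other. These r values do not rank the pairs by how far their chains parted. COL6A1 over COL6A2 was 1.39 in RF-P3 and 19.4 in A9-P7 despite its r of 0.99. A wide range of levels raises r, and COL4A2 stayed between 63.1 and 130 FPKM.

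COL4A5 and COL4A6, neighbouring chains of other type IV forms on the X chromosome in human, did not follow COL4A1. COL4A5 was at 0.755 FPKM in RF-P3, 14.9 on day 5, 15.1 on day 11, 13.3 at passage 6, 6.41 at passage 23, 6.81 in C8-P7 and 10.5 in A9-P7. It was low in the fibroblasts alone (log2 0.37, SE 0.76, limma adjusted p = 0.72), and without RF-P3 its log2 fold change was -0.70 (adjusted p = 0.097). COL4A6 was highest in CHIR-P6, at 3.51 FPKM, and between 0.136 and 1.21 FPKM in the other lines (log2 0.18, SE 0.48, limma adjusted p = 0.78). It came to -0.10 without RF-P3 and -0.23 without CHIR-P6. COL4A3 and COL4A4, chains of the kidney filter, did not pass the filter.

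Type VI collagen forms beaded filaments around cells and had the next largest level after the fibrillar class in the earlier lines (9.12% to 21.0% of the collagen FPKM), against 3.89% to 7.89% in the NESC lines. COL6A1 was at 328 FPKM in RF-P3, 427 on day 5, 752 on day 11, 19.9 at passage 6, 14.1 at passage 23, 6.55 in C8-P7 and 7.45 in A9-P7 (log2 -5.31, SE 0.42, limma adjusted p = 1.8e-04). COL6A2 was at 237, 127, 256, 3.47, 1.13, 0.373 and 0.384 FPKM in that order of lines (log2 -6.59, SE 0.45, limma adjusted p = 1.1e-04). COL6A3, the largest of the 3 chains, was at 73.9, 120, 125, 1.76, 0.429, 0.0622 and 0.0780 FPKM (log2 -6.16, SE 0.37, limma adjusted p = 8.4e-05). All 3 fell with no overlap, yet to different depths. The ratio of COL6A1 to COL6A2, which are neighbours on chromosome 3 of the same assembly and contribute equally to the filament, was 1.39 in RF-P3, 3.36 on day 5, 2.94 on day 11, 5.75 at passage 6, 12.4 at passage 23, 17.6 in C8-P7 and 19.4 in A9-P7. COL6A1 was the only one of the 3 above 2 FPKM in the NESC lines after CHIR-P6.

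**Figure D4:**
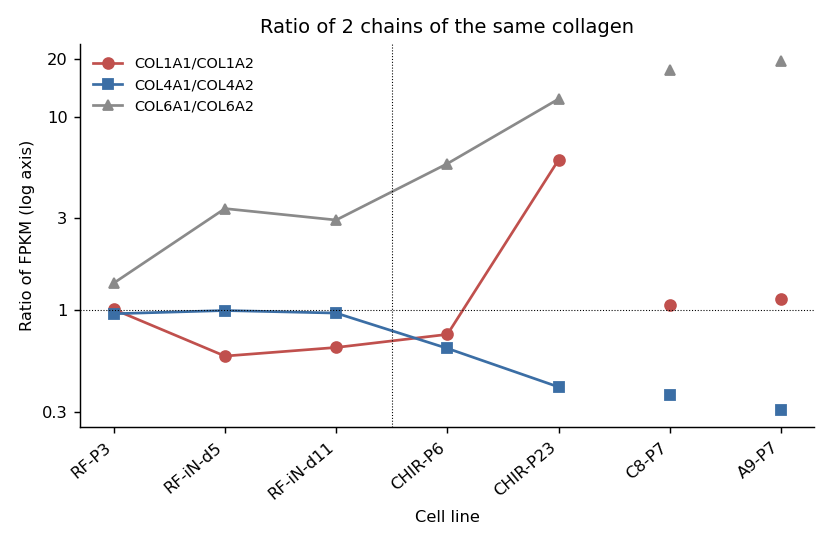
Ratio of the FPKM of 2 chains of the same collagen in each cell line (log axis, from the average of 2 libraries); points of C8-P7 and A9-P7 are not joined. COL4A1 over COL4A2 is 0.962 to 0.999 in the earlier lines and 0.307 to 0.637 in the NESC lines. COL6A1 over COL6A2 is at most 3.36 in the earlier lines and at least 5.75 in the NESC lines. COL1A1 over COL1A2 is 0.581 to 1.14 except in CHIR-P23, where it is 6.01. Both type I genes are under 1 FPKM in CHIR-P23, C8-P7 and A9-P7.

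For type I collagen the ratio of COL1A1 to COL1A2 was 1.01 in RF-P3, 0.581 on day 5, 0.644 on day 11, 0.752 at passage 6, 6.01 at passage 23, 1.07 in C8-P7 and 1.14 in A9-P7. That value in CHIR-P23 divides 0.504 by 0.0838 FPKM, and both genes were under 1 FPKM in C8-P7 and A9-P7 too. COL3A1 and COL5A2, neighbours on chromosome 12 of the same assembly but chains of different collagens, had a ratio between 2.66 and 14.7 in the earlier lines and between 0.0623 and 3.31 in the NESC lines.

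The FACITs sit on the surface of fibrils. COL12A1 and COL14A1 both occur on type I fibrils but differed. COL12A1 was at 153 FPKM in RF-P3, 83.4 on day 5, 62.3 on day 11, 7.25 at passage 6, 0.337 at passage 23, 0.257 in C8-P7 and 0.369 in A9-P7 (log2 -5.49, SE 0.69, limma adjusted p = 0.0012). COL14A1 was at 8.72, 4.66, 3.38, 11.4, 5.78, 0.489 and 0.118 FPKM in that order of lines. It was highest in CHIR-P6 and lowest in both single-cell colonies, so that the groups overlapped (log2 -0.85, SE 0.84, limma adjusted p = 0.44). COL16A1, a FACIT of skin, was at 127, 46.4 and 28.7 FPKM in the fibroblasts, on day 5 and on day 11 and at 1.18, 0.818, 0.720 and 0.822 FPKM at passage 6, at passage 23, in C8-P7 and in A9-P7 (log2 -4.91, SE 0.44, limma adjusted p = 3.4e-04). It was highest in the fibroblasts, as COL12A1 was.

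COL21A1 and COL19A1, further FACITs, were instead highest on day 11. COL21A1 was at 2.11 FPKM in RF-P3, 2.45 on day 5, 18.2 on day 11, 0.673 at passage 6 and 0.128 at passage 23, was listed at 0 in C8-P7 and was at 0.00357 in A9-P7 (log2 -2.33, SE 0.62, limma adjusted p = 0.022). This call was lost with a pseudocount of 5 (adjusted p = 0.069), with no filter (adjusted p = 0.11), and without CHIR-P23 (-2.31, adjusted p = 0.054), C8-P7 (-2.25, adjusted p = 0.060) or A9-P7 (-2.26, adjusted p = 0.060). COL19A1 was at 0.0330 FPKM in RF-P3, 0.810 on day 5, 1.71 on day 11, 0.570 at passage 6 and at most 0.131 in the later lines (log2 -0.51, SE 0.35, limma adjusted p = 0.27).

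The multiplexins COL15A1 and COL18A1, both proteoglycans of basement membrane zones, moved in opposite directions. COL18A1, whose end fragment is endostatin, was at 4.64 FPKM in RF-P3, 10.3 on day 5, 10.6 on day 11, 10.8 at passage 6, 18.6 at passage 23, 20.4 in C8-P7 and 26.7 in A9-P7. All NESC lines were above all earlier lines, although CHIR-P6 and RF-iN-d11 were nearly level. The call (log2 1.09, SE 0.35, limma adjusted p = 0.044) was close to both limits. It was lost with a pseudocount of 5 (log2 0.83), with no filter (adjusted p = 0.16) and without any 1 line other than CHIR-P6: without RF-P3 (log2 0.75, adjusted p = 0.10), RF-iN-d5 (1.25, adjusted p = 0.067), RF-iN-d11 (1.27, adjusted p = 0.057), CHIR-P23 (1.08, adjusted p = 0.094), C8-P7 (1.04, adjusted p = 0.11) or A9-P7 (0.92, adjusted p = 0.11). COL15A1 was at 6.98, 9.28, 41.5, 1.75, 1.07, 1.10 and 0.550 FPKM from RF-P3 to A9-P7, and fell (log2 -2.87, SE 0.55, limma adjusted p = 0.0065).

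COL8A1, which forms hexagonal networks in vessel walls and the cornea, was at 55.0 FPKM in RF-P3, 81.4 on day 5, 90.7 on day 11, 0.750 at passage 6, 1.63 at passage 23, 1.83 in C8-P7 and 0.264 in A9-P7 (log2 -5.22, SE 0.32, limma adjusted p = 8.4e-05). The 6 endothelial markers summed to 0.134 to 6.85 FPKM in the NESC lines and 3.33 to 40.3 FPKM in the earlier lines, with RF-iN-d5 and RF-iN-d11 highest. TEK alone was at 27.1 of 33.2 FPKM on day 5 and at 24.0 of 40.3 FPKM on day 11. VWF alone was highest in RF-P3, at 0.748 FPKM. The part of these markers in the levels of COL8A1, COL15A1 and COL3A1 was not tested.

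The transmembrane collagens and COL26A1 were not called. COL25A1, a neuronal collagen needed for motor nerves to enter muscle in mouse, was at 0.567 FPKM in RF-P3, 6.78 on day 5, 8.38 on day 11, 2.198 at passage 6, 1.14 at passage 23, 1.16 in C8-P7 and 1.61 in A9-P7 (log2 -0.96, SE 0.59, limma adjusted p = 0.23), and without RF-P3 it was called lower (log2 -1.78, adjusted p = 0.0020). COL13A1, found at the neuromuscular junction, had 1.18 FPKM in CHIR-P6, and at most 0.367 FPKM in the other lines (log2 0.15, SE 0.32, limma adjusted p = 0.73), and its log2 fold change was -0.11 without CHIR-P6. COL26A1, first described in testis and ovary of mouse, was at 0.246 FPKM in RF-P3, 1.46 on day 5, 9.45 on day 11, 7.43 at passage 6, 5.37 at passage 23, 3.62 in C8-P7 and 11.5 in A9-P7. Its level on day 11 lay within the range of the NESC lines (log2 1.23, SE 0.69, limma adjusted p = 0.19), and without RF-iN-d11 it was called higher (log2 2.09, adjusted p = 0.019).

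The 11 collagens below the filter were COL10A1, COL11A2, COL20A1, COL23A1, COL28A1, COL4A3, COL4A4, COL6A5, COL6A6, COL8A2 and COL9A2. Their highest value in any library was 1.02 FPKM, for COL9A2 in A9-P7. COL9A2, the partner of COL9A1 on type II fibrils, had a mean of 0.603 ± 0.268 FPKM over the 4 NESC lines and of 0.167 ± 0.106 FPKM over the 3 earlier lines (SD), without overlap and without a test.

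**Figure D5:**
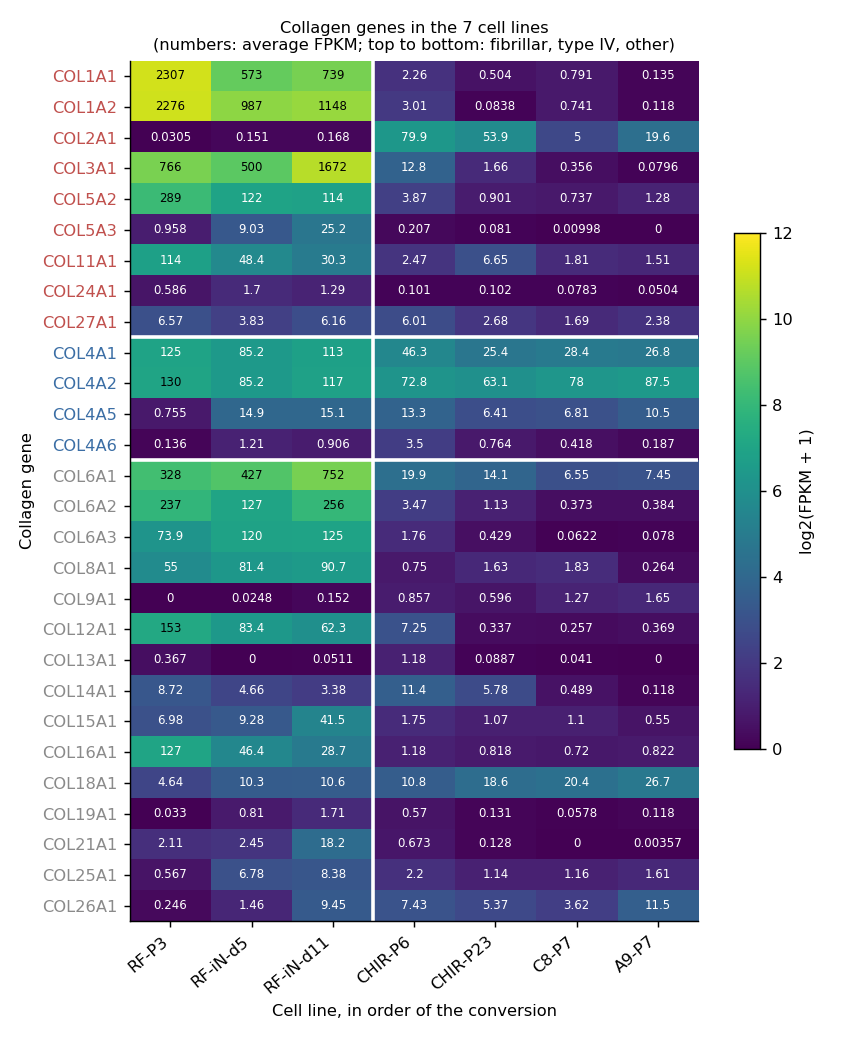
Average FPKM of the 28 collagens that passed the filter (rows) in the 7 cell lines (columns, in order of the conversion), coloured by log2(FPKM + 1); white lines separate the classes and the earlier from the NESC lines. COL1A1 has the highest value, 2307 FPKM in RF-P3, and 11 of the 28 genes have their highest value in RF-iN-d11, 9 in RF-P3, 4 in CHIR-P6 and 3 in A9-P7.

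The course between successive lines was described without a test, since each line is 1 sample, by counting differences of at least 2-fold in FPKM + 1. From the fibroblasts to day 5 both type I chains were lower. COL1A1, COL1A2, COL5A2, COL11A1 and COL16A1, 5 of the 28 (17.9%, against 8.42% of all genes), were lower on day 5. COL4A5, COL5A3 and COL25A1, 3 of the 28 (10.7%, against 9.37%), were higher. In log2 terms, COL1A1 differed by -2.01 and COL4A5 by 3.18. With a pseudocount of 0.1 the count of higher genes was 8, and after quantile normalization the count of lower genes was 3. The 4 smooth muscle markers, led by TAGLN and ACTA2, summed to 128 FPKM on day 5, against 1914 FPKM in the fibroblasts, and their part in the collagen levels was not tested.

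On day 11 a further group of collagens stood above day 5. COL3A1, COL5A3, COL6A2, COL15A1, COL21A1 and COL26A1, 6 of the 28 (21.4%, against 2.85% of all genes), were at least 2-fold higher in RF-iN-d11 than in RF-iN-d5, and 0 were lower (against 2.52%). COL3A1 was at 1672 FPKM in RF-iN-d11, against 500.4 FPKM in RF-iN-d5, and COL15A1 at 41.5 FPKM, against 9.28 FPKM.

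The largest step lay between day 11 and passage 6. In CHIR-P6, 17 of the 28 were at least 2-fold lower than in RF-iN-d11 (60.7%, against 13.1% of all genes), which comprised 7 of the 9 fibrillar collagens tested (all but COL2A1 and COL27A1), COL4A1, all 3 tested type VI chains, and COL8A1, COL12A1, COL15A1, COL16A1, COL21A1 and COL25A1. COL2A1, COL4A6, COL13A1 and COL14A1, 4 of the 28 (14.3%, against 8.49%), were higher, and with a pseudocount of 5 only 1 was. COL1A2 was at 3.01 FPKM in CHIR-P6, against 1148 FPKM in RF-iN-d11. All 9 fibroblast markers were lower in CHIR-P6 too, at any size of difference, a measure not computed over all genes. Together they summed to 513 FPKM in CHIR-P6 and 4125 FPKM in RF-iN-d11, and without VIM to 63.1 FPKM in CHIR-P6 and 2449 FPKM in RF-iN-d11, and their part in the collagen levels was not tested.

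From passage 6 to passage 23 more collagens were lower than higher. COL1A1, COL1A2, COL3A1, COL4A6, COL5A2, COL6A2, COL12A1 and COL13A1, 8 of the 28 (28.6%, against 4.28% of all genes), were at least 2-fold lower in CHIR-P23 than in CHIR-P6. COL11A1 was the 1 that was higher (3.57%, against 1.39%), at 6.65 FPKM in CHIR-P23 and 2.47 FPKM in CHIR-P6. Of the 9 fibroblast markers, 7 were lower in CHIR-P23. Without VIM they summed to 26.7 FPKM in CHIR-P23 and 63.1 FPKM in CHIR-P6, while VIM was at 666 FPKM in CHIR-P23 and 450 FPKM in CHIR-P6. The part of these markers in the collagen levels was not tested. The count of lower genes ranged with the setting, from 2 with a pseudocount of 5 through 5 after quantile normalization to 13 with a pseudocount of 0.1.

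Both single-cell colonies were set against CHIR-P23, which the comparisons share. COL2A1, COL11A1 and COL14A1 were at least 2-fold lower in C8-P7 (3 of the 28, 10.7%, against 2.39% of all genes), and these 3 with COL3A1 and COL8A1 were lower in A9-P7 (5 of the 28, 17.9%, against 2.59%). In log2 terms, COL14A1 differed by -2.19 in C8-P7 and by -2.60 in A9-P7. In neither colony was a collagen at least 2-fold higher (0, against 1.04% in C8-P7 and 1.57% in A9-P7). With a pseudocount of 0.1 the counts of lower genes were 8 in C8-P7 and 10 in A9-P7, and with a pseudocount of 5 they were 1 and 2 in the same order.

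The colonies also differed from each other. COL2A1 was at 19.6 FPKM in A9-P7, against 5.00 FPKM in C8-P7, and COL26A1 at 11.5 FPKM, against 3.62 FPKM (2 of the 28 at least 2-fold higher in A9-P7, 7.14%, against 1.33% of all genes). COL8A1 was at 0.264 FPKM in A9-P7, against 1.83 FPKM in C8-P7 (1 of the 28 lower, 3.57%, against 1.19%). With a pseudocount of 0.1 the counts were 2 higher and 5 lower, and with a pseudocount of 5 they were 1 higher and 0 lower. The estimated depth relative to RF-P3 was 5.28 in A9-P7 and 1.27 in C8-P7.

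Cells need a set of enzymes and carriers to make collagen and receptors to bind it, and most of the tested genes of both kinds were lower in the NESC lines too. Of 49 genes in 5 lists, with the receptors as 1 of the lists, 44 were tested. Of these 44, 30 fell (against 13.2% of all genes), 1 rose (a receptor, against 7.57%) and 13 were not called (median log2 -1.70). Prolyl and lysyl hydroxylases and their partners stabilize the helix, and 10 of 13 fell. P4HA2, a prolyl hydroxylase subunit, was at 1.49 FPKM in CHIR-P6, 2.05 at passage 23, 3.20 in C8-P7 and 3.16 in A9-P7, against 45.7 in RF-P3, 34.5 on day 5 and 22.5 on day 11 (log2 -3.32, SE 0.29, limma adjusted p = 2.9e-04). The lysyl hydroxylases PLOD2 (log2 -3.32), PLOD3 (-2.61) and PLOD1 (-2.55) fell as well.

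Of 11 chaperone and export genes, 7 fell (against 13.2% of all genes). CREB3L1, a transcription factor that drives type I collagen genes in mouse bone, was at most 0.308 FPKM in a NESC line and at least 35.0 FPKM in an earlier line (log2 -5.48, SE 0.36, limma adjusted p = 9.8e-05). SPARC, a collagen-binding matrix protein, fell (log2 -3.89), as did SEC24D, a coat protein of the vesicles that carry procollagen (log2 -2.098), and FKBP14, a folding enzyme, at 6.58 to 10.3 FPKM in the NESC lines and 29.1 to 44.4 FPKM in the earlier lines. SERPINH1, the collagen chaperone HSP47, which was picked after its values were seen, was also called lower, at 206 FPKM in CHIR-P6, 241 at passage 23, 191 in C8-P7 and 169 in A9-P7, against 1163 in RF-P3, 394 on day 5 and 448 on day 11 (log2 -1.56, SE 0.36, limma adjusted p = 0.013). For COL1A1 and COL1A2, whose chains it helps to fold, the log2 fold changes were -9.13 and -9.65.

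Of 7 procollagen processing genes tested, 4 fell, against 13.2% of all genes. Among them were PCOLCE, an enhancer of the C-terminal cut (log2 -3.82), and BMP1, the protease that makes it (-2.80). ADAMTS14 (-2.54) and ADAMTS2, proteases of the N-terminal cut, were the others. ADAMTS2 was listed at 0 in all 4 NESC lines, against 27.2 FPKM in RF-P3, 3.55 on day 5 and 1.36 on day 11. Lysyl oxidases cross-link collagen. Of 5, LOX (log2 -4.81), LOXL1 (-3.38) and LOXL2 (-2.82) fell (against 13.2% of all genes) and 2 were not called. Of 8 receptor genes tested, 6 fell, against 13.2% of all genes. Foremost were DDR2, a tyrosine kinase activated by fibrillar collagens (log2 -4.30), and the integrin chains ITGA1 (-3.21), ITGA11 (-3.04) and ITGB1 (-2.35).

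DDR1, the related tyrosine kinase of epithelia, which also binds type IV collagen, was the 1 gene of the 5 lists that rose. It was at 47.0 FPKM in CHIR-P6, 34.1 at passage 23, 40.4 in C8-P7 and 45.6 in A9-P7, against 7.57 in RF-P3, 12.4 on day 5 and 19.2 on day 11 (log2 1.68, SE 0.28, limma adjusted p = 0.0037). DDR2 was at 6.17, 0.433, 0.191 and 0.255 FPKM at passage 6, at passage 23, in C8-P7 and in A9-P7, against 32.8, 34.9 and 47.9 FPKM in the fibroblasts, on day 5 and on day 11. DDR1 was thus the higher of the pair in every NESC line and DDR2 in every earlier line.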

How the data were processed

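The deposited values are FPKM per gene locus. Per the submitters' processing notes, the authors aligned reads with HISAT2 2.1.0 to the build Mmul 8.0.1 and quantified loci with Cufflinks 2.2.1, followed by Cuffnorm 2.2.1. RNA was depleted of ribosomal RNA only. Of 33737 loci, 28445 carried the values of the neighbouring label and were moved back, and 49 were dropped. As a check, all 14 collagens of the study's own table matched its 7 averages after realignment and 0 did as labelled, within 0.3 on the log2 scale.

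Libraries of a cell line were compared through whole counts recovered from the steps of low FPKM (within 0.1 of a whole number), where 51.1% to 67.9% of loci had equal counts, and were averaged. The study calls the libraries of a line biological replicates, but they differed by less than separate libraries would by counting noise alone. Groups were taken from the sample labels. The averages were tested with limma 3.58.1 (R 4.3.3) on log2(FPKM + 1) with an intensity trend and 5 residual degrees of freedom. The fit was also run on simulated lines that were independent, so that run does not cover lines that descend from each other. Fold changes between 2 lines and class shares carry no test. Alternatives were pseudocounts of 0.1 and 5, filters, scalings, 14 libraries as samples and each line or library left out. Python 3.11.15, NumPy 2.4.6, pandas 2.3.3 and Matplotlib 3.10.9 were used for tables and figures.

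Every collagen that passed the filter is named with its values. In each pathway list, up to 4 called genes are named by absolute log2 fold change, and SERPINH1 and DDR1 were added after their values were seen. The members and lists were chosen with earlier results of these data known. Read counts were not used here. The transposable element analyses of the study were not analysed here.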

Additional observations from a re-analysis of the deposited data

Results flagged for a closer look

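In 3 of 31 checks for a single NESC line far from the other three (28 collagens and 3 class shares), CHIR-P6 stood apart by more than Dixon's limit on log2(FPKM + 1) or on the share. Chance gives about 1 in 20 such results where the lines are independent, which these are not, since C8-P7 and A9-P7 were grown from CHIR-P23. COL12A1 reached 7.246 FPKM in CHIR-P6, against between 0.257 and 0.369 FPKM in the other NESC lines. COL13A1 reached 1.181 FPKM in CHIR-P6, against at most 0.0887 FPKM in the others. COL19A1 reached 0.5702 FPKM in CHIR-P6, against between 0.0578 and 0.131 FPKM in the others. CHIR-P6 is the NESC line of the lowest passage after the conversion.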

How the results depend on the processing

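The count of collagens called lower in the NESC lines (15) was between 13 and 17 when a library or a line was left out, and that of collagens called higher (2) between 1 and 3, with 1 without RF-P3, RF-iN-d5, C8-P7 or A9-P7. With the 14 libraries as samples and the replicate block, 2 collagens were higher and 15 lower. Libraries with the same replicate number did not deviate together (correlations of -0.030 to 0.065 over 21 pairs of lines), and this fit treats both libraries of a line as separate samples. Of all genes, 868 to 1238 were higher and 1628 to 2218 lower when a library or line was left out (1137 and 1987 with all). A pseudocount of 5 gave 501 higher and 1115 lower genes and 1 higher collagen, no filter gave 744 higher genes and 1 higher collagen, and no minimum fold change gave 2522 higher and 3094 lower genes.

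Of 527 results for single collagens under these alternatives, 491 kept their direction and call, 18 lost a call, 14 gained one and 4 changed sign. The last were COL13A1 (-0.11 without CHIR-P6, up to 0.29 without another line), COL4A6 (-0.10 without RF-P3 and -0.23 without CHIR-P6, up to 0.41) and COL4A5 (-0.70 without RF-P3, up to 0.90), none of them called. With no minimum fold change COL4A2, COL9A1 and COL24A1 gained a call. For 17 of the 28 collagens neither the call nor the direction changed. Some of these settings could hardly change a result. Paired libraries differed by a median of 0.610% (RF-iN-d11) to 2.24% (C8-P7) among collagens at 1 FPKM or more, so leaving out a library alters little. The filter of 5 FPKM and the setting with no minimum fold change leave the fold changes as they were.

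Counts between 2 lines moved most with the pseudocount. With a pseudocount of 0.1, 8 collagens were higher in RF-iN-d5 against RF-P3, 2 higher and 13 lower in CHIR-P23 than in CHIR-P6, 1 higher and 8 lower in C8-P7 than in CHIR-P23, 2 higher and 10 lower in A9-P7 than in CHIR-P23, and 5 lower in A9-P7 than in C8-P7. With a pseudocount of 5, 1 was higher in CHIR-P6 against RF-iN-d11, 0 higher and 2 lower in CHIR-P23 than in CHIR-P6, 1 lower in C8-P7 and 2 lower in A9-P7 than in CHIR-P23, and 1 higher and 0 lower in A9-P7 than in C8-P7. After quantile normalization, 3 were lower in RF-iN-d5 against RF-P3 and 5 lower in CHIR-P23 than in CHIR-P6. Without replicate 1 or 2 these counts were 3 to 4 and 5 for RF-iN-d5, 6 and 0 for RF-iN-d11, 4 and 17 for CHIR-P6, 1 and 7 to 8 for CHIR-P23, 0 and 3 to 4 for C8-P7, 0 and 5 for A9-P7 against CHIR-P23, and 2 and 1 for A9-P7 against C8-P7 (higher and lower).

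Counting types XV and XVIII with the basement membrane class moved the other types to 14.4% of the collagen FPKM in the NESC lines. Without replicate 1 or 2 the mean shares were 21.1% to 21.3% fibrillar, 54.5% to 54.4% type IV and 24.3% to 24.4% other in the NESC lines, and 72.8%, 4.58% to 4.60% and 22.6% in the earlier lines. No collagen symbol was repeated, so that summing loci gave no further value. With 1 sample per line and unequal depth, values under 1 FPKM are the least certain.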
